A study of Trichoderma asperellum with 9 samples.

Results

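The models described here are the 111 of 9396 gene models of Trichoderma asperellum strain Ts93 whose transcript level was raised by BCS and stayed close to the control level with copper. They were chosen on measured values. With B, C and K the mean FPKM (fragments per kilobase of model, scaled to library size) of the BCS, control and copper libraries, a member had a log2 ratio of B + 1 to C + 1 of at least 1.5. Its log2 ratio of K + 1 to C + 1 lay within 0.5 of 0, its 3 BCS values each lay above all 6 control and copper values, and B was at least 5 FPKM. The wild-type strain, with no other allele named, was sequenced in 3 groups of 3 libraries: untreated control, BCS at 0.5 mM and copper ions at 1 mM. T. asperellum is a mould that lives in soil and is applied against plant pathogens. The sources used here do not say whether replicates were separate cultures, so all spreads and tests refer to the variation between libraries, which may be technical.

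BCS is not written out in the labels. As background, it commonly stands for bathocuproine disulfonate, which binds copper and does not enter cells readily, so it is added to fungal cultures to withhold the metal. Copper is the cofactor of cytochrome c oxidase, of copper-zinc superoxide dismutase and of laccases and other multicopper oxidases. In baker's yeast, copper shortage activates the transcription factor Mac1, which turns on copper transporters of the Ctr family and cell-surface metalloreductases that reduce copper ahead of uptake, while copper excess acts through Ace1 on metallothioneins. Which of these roles, if any, the 111 models fill cannot be read from the deposited table. It pairs no identifier with a name, and 0 of 9396 identifiers matched any of the 12041 genes in a RefSeq table of another T. asperellum strain, FT101.

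The members comprised 90 numbered models, with identifiers such as 93-3_5.6A6772, and 21 supplementary ones, named in the style of Novel01089. The supplementary models made up 18.9% of the members and 18.3% of the 7857 models tested, which were those at 1 FPKM or more in at least 3 libraries. Of the 111 members, 110 passed that filter. The exception was 93-3_5.6A4004, at 22.2, 0.701 and 3.35 FPKM in BCS replicates 1 to 3. The library totals, recovered from the FPKM values, lay between 12335534 reads (copper replicate 1) and 17142918 (control replicate 2). RNA was measured in bulk, so more cells with a transcript and more of the transcript per cell cannot be told apart.

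In BCS the members took up 2.67%, 2.29% and 2.40% of the reads of replicates 1 to 3. In the control libraries they took up 0.385%, 0.387% and 0.4001%, and in the copper libraries 0.329%, 0.405% and 0.379%. The copper and control ranges overlapped and all 3 BCS libraries lay above both, which the choice of members fixes. A few models supplied most of these reads. Of 993348 member reads in BCS, the 5 members with the most held 53.5% and the 10 with the most held 68.5%. The largest share, 15.6%, belonged to 93-3_5.6A4954, followed by Novel01089 with 14.2%, 93-3_5.6A3086 with 12.5%, 93-3_5.6A0538 with 7.06% and 93-3_5.6A6827 with 4.11%.

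The log2 ratio of BCS to control had a median of 2.58 over the 111 members and ran from 1.51 to 7.90, beside a median of -0.07 over all tested models. It was at least 2 in 77 members, at least 3 in 40, at least 5 in 13 and at least 7 in 4. The ratio of copper to control had a median of -0.07, with 49 members above 0 and 62 below, and 62 lay within 0.25 of 0. Over all tested models the copper ratio had a median of 0.11, a shift that was 0.23 after rescaling to TPM and -0.04 after median-of-ratios scaling. The members' own median was 0.01 and -0.12 on those scales, below the table's median each time. All 3 copper values exceeded all 3 control values in 6 members (5.41%), against 25.7% of tested models, and lay below them in 4 (3.60%), against 10.9%. The limit on the copper ratio shapes these shares, so they are given as description.

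**Figure D1:**
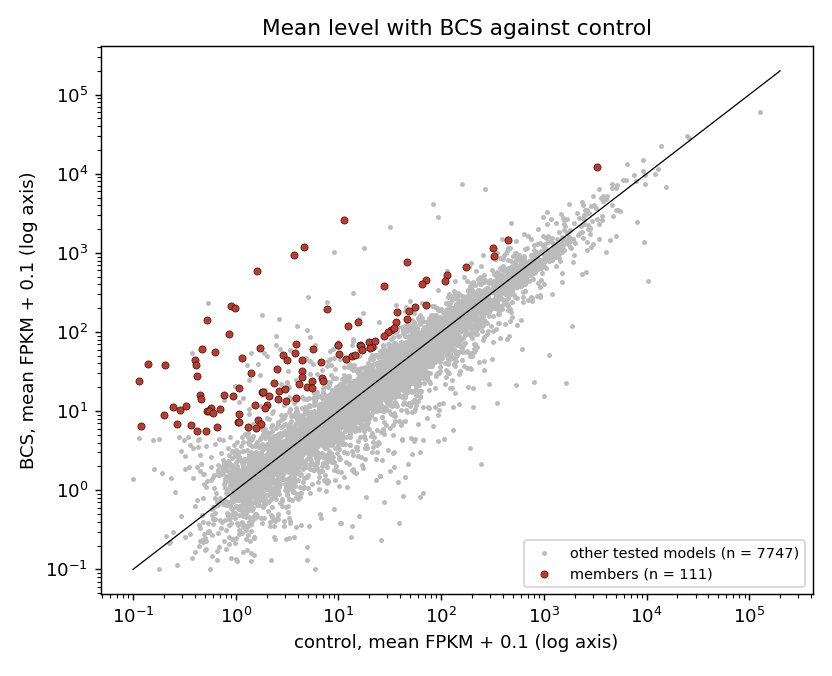
Mean FPKM + 0.1 of each tested model in the 3 control libraries (horizontal log axis) and the 3 BCS libraries (vertical log axis), with the 111 members in red, the other tested models in grey and equal levels on the line. Members lie above the line over the whole range of control levels, and those farthest from it have control means below about 10 FPKM.

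Mean levels in BCS had a median of 43.9 FPKM and ran from 5.44 to 12136 FPKM, with 29 members at 100 FPKM or more and 17 below 10. The lowest BCS value exceeded the highest of the other 6 values by a median factor of 2.95. That factor was at least 2 in 85 members, at least 10 in 23 and at least 100 in 7. It was smallest, 1.10, in 93-3_5.6A0044, at 78.1, 33.7 and 85.7 FPKM in BCS, 24.3, 19.6 and 4.98 in the control and 17.5, 30.6 and 17.2 in copper. BCS replicate 2 and copper replicate 2 nearly met there. It was largest, 189, in 93-3_5.6A2691.

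Of the 8 members with the largest ratios, 4 had a log2 ratio above 7. The steepest was 93-3_5.6A6772, with a coding length of 681 bases. It stood at 548, 756 and 488 FPKM in BCS (597 ± 141, SD, n = 3), at 3.45, 0.514 and 0.526 in the control and at 1.31, 1.75 and 2.29 in copper, a log2 ratio of 7.90. Control replicate 1 was the highest non-BCS value and lay within a few FPKM of the rest. Model 93-3_5.6A0600 (732 bases) gave 1228, 1315 and 1068 FPKM in BCS, against 6.62, 4.14 and 2.94 in the control and 8.08, 3.15 and 7.24 in copper, a log2 ratio of 7.76. Its BCS values were close to each other, and its copper and control values overlapped. 93-3_5.6A0538 (660 bases) rose to 2505, 3131 and 2139 FPKM from 16.4, 8.22 and 9.32 in the control, with 11.7, 9.88 and 9.92 in copper, a log2 ratio of 7.72. Copper lay inside the control range in all 3 of its libraries. Novel01089, with a fitted length of 3695 bases, gave 918, 1214 and 664 FPKM in BCS, 4.68, 3.38 and 2.62 in the control and 4.59, 3.31 and 3.31 in copper, a log2 ratio of 7.68. In these 4 members the lowest BCS value was at least 100 times the highest other value.

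The other members of the steepest 8 started below 2 FPKM. 93-3_5.6A2689 (1749 bases) stood at 155, 225 and 224 FPKM in BCS, 1.26, 0.634 and 0.751 in the control and 1.11, 0.727 and 0.891 in copper, a log2 ratio of 6.75. 93-3_5.6A2691 (2088 bases) gave 145, 152 and 131 FPKM in BCS, 0.689, 0.251 and 0.343 in the control and 0.272, 0.495 and 0.336 in copper, a log2 ratio of 6.65. In both, control and copper overlapped and BCS lay far above. 93-3_5.6A3894 (2931 bases) reached 78.6, 120.4 and 82.3 FPKM in BCS from 0.931, 0.537 and 0.835, with 0.774, 1.11 and 1.04 in copper, a log2 ratio of 5.74. 93-3_5.6A6380 (888 bases) was uneven. It gave 395, 30.03 and 213 FPKM in BCS, 0.853, 0.526 and 1.01 in the control and 0.548, 2.78 and 0.526 in copper, a log2 ratio of 6.89. BCS replicate 2 was the low library of its group and copper replicate 2 the high one of its own.

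**Figure D2:**
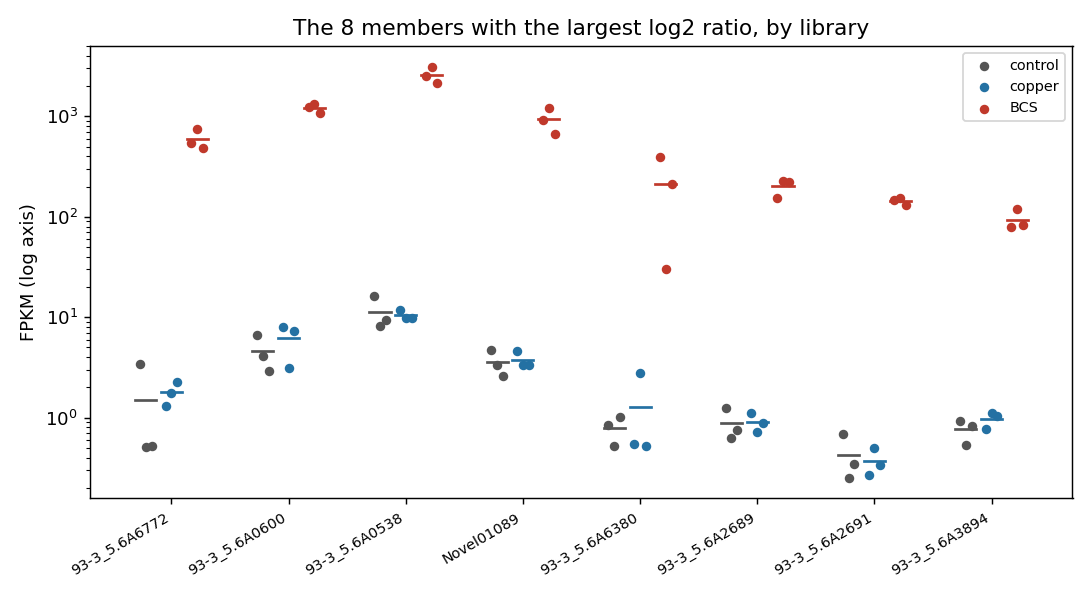
FPKM on a log axis in each of the 9 libraries for the 8 members with the largest log2 ratio of BCS to control, with points for libraries and horizontal lines for group means. In all but 93-3_5.6A6380 the 3 BCS points lie close together, whereas that model has 1 BCS point at 30.03 FPKM and the others at 213 and 395.

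Members differed in how much transcript they had without BCS. The control mean was under 1 FPKM in 35 members (31.5%), from 1 to under 10 FPKM in 41 (36.9%) and 10 FPKM or more in 35 (31.5%). Among tested models these shares were 3.98%, 29.3% and 66.7%. The filter shapes this contrast, since it removes models under 1 FPKM in most libraries. The 24 members under 1 FPKM in all 6 control and copper libraries could pass it only through their BCS values. Nothing is therefore read from the difference in shares. The median log2 ratio of BCS to control fell across the 3 classes, from 3.35 to 2.49 to 1.87, and the median linear ratio from 46.2 to 6.97 to 3.69. The rule bears on this order, since a mean of at least 5 FPKM in BCS forces a linear ratio above 5 wherever the control mean is under 1 FPKM. Of the 76 models raised to the same extent by BCS but lowered by copper, 3 (3.95%) had a control mean under 1 FPKM. The 2 sets cannot be compared freely at that level, because a control mean under 0.414 FPKM cannot reach a copper ratio of -0.5 on this scale, and 17 members lay below it.

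In all, 24 members stayed under 1 FPKM in all 6 control and copper libraries, and 12 of them had at least 5 FPKM in all 3 BCS libraries. Few reads lie behind such control levels. The 3 control libraries together gave fewer than 10 reads in 8 members and fewer than 100 in 44. With 1 to 3 control reads in 4 members, the ratios of these 4 are loosely bounded. Novel01022 had 1 control read and 1401 BCS reads, a ratio of 1623 per library total with a 95% counting interval of 291 to 64139. For 93-3_5.6A0564 the reads were 1 and 980 and the ratio 1135 (203 to 44879), for Novel01235 2 and 591 and the ratio 342 (94.3 to 2833), and for 93-3_5.6A4004 3 and 190 and the ratio 73.4 (24.7 to 359). These intervals cover counting error only. Novel01022 was even across its BCS libraries, at 24.0, 29.4 and 17.7 FPKM, while the control values were 0, 0.0404 and 0 and the copper values 0.112, 0 and 0.0540.

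At the other end were members already abundant in the control, which moved by a smaller factor. 93-3_5.6A4954 had the highest level of all, with a coding length of 321 bases. It stood at 16427, 9001 and 10979 FPKM in BCS (12136 ± 3846, SD, n = 3), at 3409, 4324 and 2188 in the control and at 2201, 3235 and 2516 in copper, a log2 ratio of 1.88. The lowest BCS library was 2.08 times the highest control library. 93-3_5.6A1154 (702 bases) gave 2289, 924 and 1199 FPKM in BCS, 433, 457 and 444 in the control and 289, 445 and 331 in copper. Its control libraries were nearly equal, and BCS replicate 1 carried much of the mean. 93-3_5.6A0017 (348 bases) gave 1069, 989 and 715 FPKM in BCS, 302, 262 and 409 in the control and 308, 278 and 299.98 in copper, and at 1.51 its log2 ratio was the one nearest to the limit. 93-3_5.6A5013 (291 bases), also among the 8 highest in BCS, went further. It gave 745, 926 and 639.8 FPKM in BCS, 73.7, 48.5 and 16 in the control and 48.5, 64.5 and 78.4 in copper, a log2 ratio of 4.03.

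Thresholds bound the set on 3 measures, and models just outside were close to members. For the BCS ratio, 93-3_5.6A0017 lay just inside at 1.51 and 93-3_5.6A0928 just outside at 1.48, with mean FPKM of 36.1 in BCS, 12.3 in the control and 15.98 in copper. For the copper ratio, 93-3_5.6A6827 lay just inside at -0.50, with means of 672 FPKM in BCS, 175 in the control and 124 in copper, and 93-3_5.6A2099 just outside at -0.51, with means of 2881, 93.2 and 65.2. The latter is thus left to the models lowered by copper although its BCS ratio of 4.94 exceeds that of most members. For the level in BCS, Novel01878 lay inside at 5.44 FPKM and Novel01779 outside at 4.59. Altogether, 197 models met the conditions on BCS alone: the 111 members, 76 with a copper ratio of -0.5 or lower and 10 with one of 0.5 or higher.

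Libraries of the BCS group differed more in the members than in tested models at large. The SD over the 3 BCS libraries on the log2(FPKM + 1) scale had a median of 0.54 in members, against 0.32 in tested models and 0.55 in the 76 models lowered by copper. The members and these 76 models were chosen on these same BCS values, which bears on their spread, so it is given as description. In the control libraries the medians were 0.28 in members and 0.25 in tested models, and in the copper libraries 0.22 and 0.18. The gap between members and tested models was thus widest in BCS. This scale presses values near 0 together, and the members' mean levels had medians of 2.96 FPKM in the control and 2.69 in copper. In BCS that median was 43.9 FPKM, so the groups are not compared like for like. The models lowered by copper had medians of 0.56 in the control and 0.25 in the copper libraries, so their wide spread was not confined to BCS. Among members the SD over the BCS libraries was smallest in Novel01443, at 7.27, 6.34 and 6.74 FPKM in BCS, with no control or copper value above 0.298. Next came 93-3_5.6A6035, at 65.2, 74.2 and 68.2 FPKM in BCS against 13.7, 21.1 and 13.1 in the control and 22.9, 16.2 and 14.9 in copper.

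The order of the BCS libraries was also unlike that of the table at large. BCS replicate 1 was the highest of its group in 68 members (61.3%), against 15.2% of tested models, and BCS replicate 2 in 35 (31.5%), against 67.6%. BCS replicate 2 was the lowest in 54 members (48.6%), against 16.7%. The 76 models lowered by copper had BCS replicate 2 lowest in 56.6% and BCS replicate 1 highest in 67.1%, so the order was not particular to members. The scaling moved these shares: BCS replicate 2 was lowest in 46.8% of members and 16.6% of tested models after rescaling to TPM, in 66.7% and 38.7% after median-of-ratios scaling and in 64.9% and 34.0% after quantile normalization, alternatives added after the order had been seen. Relative to the mean of BCS replicates 1 and 3 on the log2(FPKM + 1) scale, BCS replicate 2 had a median of -0.35 in members and 0.35 in tested models. It lay at least 1 unit lower in 27 members (24.3%, against 2.80%) and at least 2 units lower in 8 (7.21%, against 0.280%). It lay at least 1 unit higher in 6 (5.41%, against 6.78%).

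**Figure D3:**
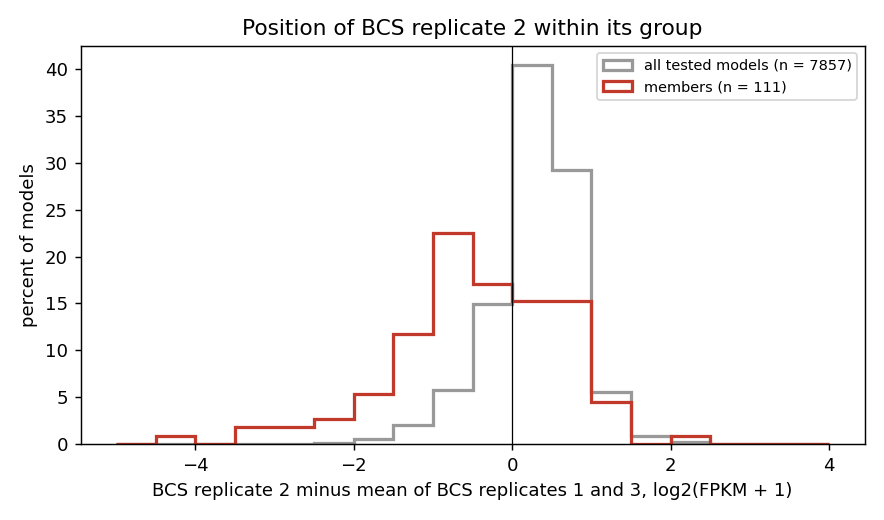
Distribution of the level in BCS replicate 2 minus the mean of BCS replicates 1 and 3, in log2(FPKM + 1), as percent of models for the 111 members (red) and all 7857 tested models (grey). The tested models centre above 0 (median 0.35) and the members below it (median -0.35), with a tail to under -4.

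The 8 members with the deepest dip in BCS replicate 2, singled out after their values were seen, include all 3 members of the largest BCS spread. 93-3_5.6A0564 (660 bases) gave 80.8, 1.63 and 34.4 FPKM in BCS, 0.115, 0 and 0 in the control and 0, 0.482 and 0.236 in copper. 93-3_5.6A4973 (891 bases) gave 148, 4.08 and 14.9 FPKM in BCS, 0.340, 0.851 and 0.402 in the control and 0.182, 2.77 and 0.262 in copper. In both, the highest copper value came from copper replicate 2, and BCS replicate 2 exceeded it by a factor of 3.39 in 93-3_5.6A0564 and of 1.48 in 93-3_5.6A4973. Without BCS replicate 1, the log2 ratio of BCS to control was 2.78 in place of 5.21 in 93-3_5.6A4973 and 4.196 in place of 5.27 in 93-3_5.6A0564. The third was 93-3_5.6A6380, described above. 93-3_5.6A6379 showed the same order, with 66.3, 6.34 and 42.7 FPKM in BCS, 0.178, 0.0687 and 0.0703 in the control and 0.0955, 0.937 and 0.184 in copper. Copper replicate 2 was the highest copper library in 7 of these 8 members. Over all members it was so in 61 (55.0%), against 26.9% of tested models. The 76 models lowered by copper had it highest in 55.3%, and the 10 with a copper ratio of 0.5 or higher in 6, so this was not particular to members. The shares of members and tested models were 55.9% and 32.7% after rescaling to TPM. They were 62.2% and 37.2% after median-of-ratios scaling and 54.1% and 32.1% after quantile normalization. Copper replicate 2 was highest in 39 of the 54 members with BCS replicate 2 lowest (72.2%), against 44.6% of the tested non-members with that order. In the other 57 members it was highest in 22 (38.6%), against 23.0%. The part of these libraries in the members' ratios was not tested beyond leaving them out: without BCS replicate 2 the median log2 ratio of BCS to control was 2.72, with a range of 1.20 to 7.70. The opposite order occurred too, as in Novel00910, at 151, 397 and 40.5 FPKM in BCS, 9.83, 4.33 and 8.63 in the control and 2.82, 11.1 and 6.89 in copper.

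Members stood at numbers next to numbered members more often than their share of numbered models, though most numbered members had no such neighbour. The sources used here do not say whether the numbers follow the order of genes along the genome, so this is a statement on identifiers. Of the 90 numbered members, 19 had a member at the number directly before or after, and 25 had one within 3 numbers. Members filled 20 of the 180 adjacent numbers (11.1%), whereas 1.28% of all numbered models are members. Tested models next to a member that were not members themselves had a log2 ratio of BCS to control of at least 1 in 19 of 135 cases (14.1%), against 264 of 6329 (4.17%) of all tested numbered non-members, which include those 135, with medians of 0.15 and -0.08. Supplementary models gave too few cases to judge, as only 2 of the 21 supplementary members were neighbours. Members filled 2 of the 42 adjacent supplementary numbers (4.76%), whereas 0.892% of all supplementary models are members. Of tested supplementary non-members next to a member, 1 of 22 (4.55%) had a ratio of at least 1. Among all tested supplementary non-members it was 82 of 1418 (5.78%). With steps of up to 3 numbers, 27 members fell into 12 runs, and 9 of the runs had steps of 1 only.

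The run of 3 consecutive members combined a high and a low starting level. Between 93-3_5.6A2689 and 93-3_5.6A2691, which rose from under 1 FPKM, lay 93-3_5.6A2690 (855 bases), at 1437, 965 and 1056 FPKM in BCS, 354, 301 and 301 in the control and 361, 331 and 314 in copper. Its log2 ratio of 1.85 was far below the 6.75 and 6.65 of its neighbours, and its level in every library was the highest of the 3. The next models on either side were no members, with log2 ratios of BCS to control of 0.75 in 93-3_5.6A2688 and 0.29 in 93-3_5.6A2692.

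The longest run held 4 members within 7 numbers, and was picked out after its values were seen. 93-3_5.6A6376 gave 40.5, 12.2 and 28.3 FPKM in BCS, 2.66, 3.54 and 6.85 in the control and 3.91, 2.62 and 2.39 in copper. 93-3_5.6A6382 gave 27.8, 3.86 and 20.7 in BCS, 1.86, 2.39 and 0.977 in the control and 2.49, 1.63 and 1.12 in copper. With 93-3_5.6A6379 and 93-3_5.6A6380, all 4 had BCS replicate 1 highest and BCS replicate 2 lowest. The non-member between 93-3_5.6A6380 and 93-3_5.6A6382, 93-3_5.6A6381, had the same order, at 430.0, 32.6 and 242 FPKM in BCS. It rose further than any of the 4 members (log2 ratio 7.36, from a control mean of 0.433 FPKM) but fell outside the rule by a copper ratio of 0.58. Copper replicate 2, at 2.40 FPKM, contributed most to that copper ratio. The run was not uniform, since 93-3_5.6A6377 had a log2 ratio of BCS to control of -3.23 and one of copper to control of 1.25. BCS replicate 2 was the highest of its group in that model. 93-3_5.6A6378, also inside the run, had ratios of 0.60 and 0.71, and BCS replicate 3 was its lowest BCS library.

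**Figure D4:**
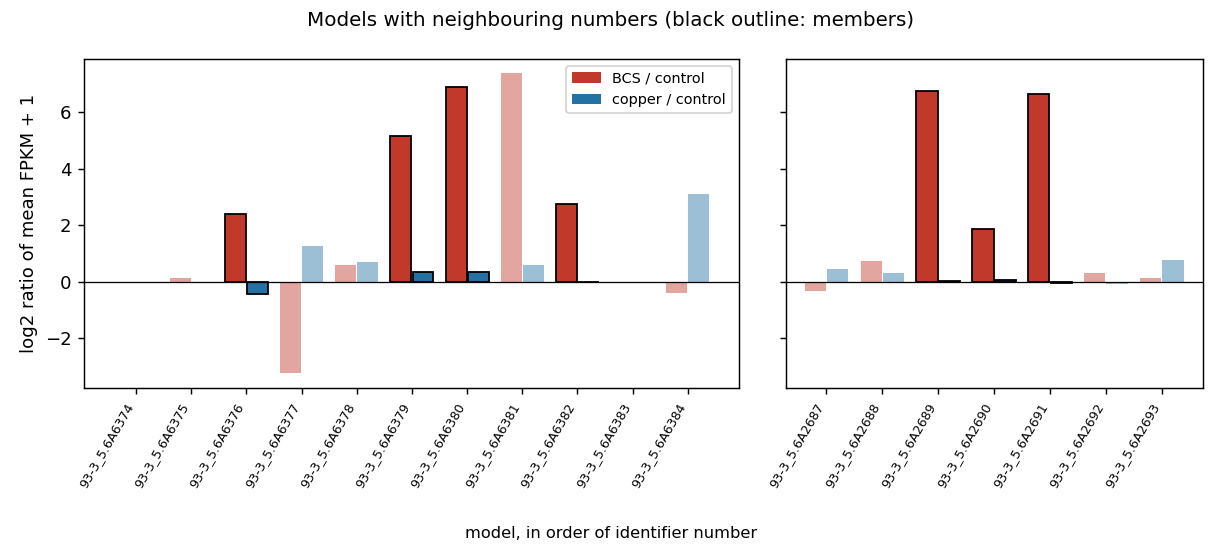
Log2 ratio of mean FPKM + 1 to the control, for BCS (red) and copper (blue), in models ordered by identifier number around the 2 longest runs, with members outlined in black and other models pale. Members reach 6.89 on the left and 6.75 on the right, 93-3_5.6A6381 reaches 7.36 without being a member, and 93-3_5.6A6377 points the other way at -3.23.

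Some of the other pairs with consecutive numbers had like ratios and others did not. 93-3_5.6A3895 followed 93-3_5.6A3894 and gave 45.1, 90.1 and 48.6 FPKM in BCS, 0.430, 0.331 and 0.339 in the control and 0.506, 0.452 and 0.310 in copper, a log2 ratio of 5.51 beside 5.74. In both, BCS replicate 2 was the highest library. 93-3_5.6A6004 and 93-3_5.6A6005 had log2 ratios of 2.84 and 2.93, at 19.4, 7.73 and 4.38 and at 21.2, 4.91 and 3.51 FPKM in BCS, so both were carried by BCS replicate 1. Novel01088 preceded Novel01089 and stood at 54.9, 99.6 and 33.4 FPKM in BCS, against 1.93, 1.73 and 1.24 in the control and 1.35, 2.27 and 1.09 in copper, with the same order of the BCS libraries as Novel01089 but a log2 ratio of 4.59 beside 7.68. The ratios also differed for 93-3_5.6A1107 and 93-3_5.6A1108, at 3.36 and 1.52, and for 93-3_5.6A1949 and 93-3_5.6A1950, at 5.11 and 3.75, whereas 93-3_5.6A0940 and 93-3_5.6A0941 had 1.79 and 1.77 and 93-3_5.6A4273 and 93-3_5.6A4274 had 1.86 and 2.18. The widest difference was that of 93-3_5.6A6773, next to the steepest member, at 42.1, 78.8 and 36.0 FPKM in BCS from 10.1, 11.04 and 8.92 in the control, a log2 ratio of 2.27 beside 7.90. These pairs were also chosen after their values were seen.

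Model lengths in the set were close to those of the table. Numbered members had a median coding length of 1083 bases (222 to 9786), against 1143 bases for tested numbered models, and supplementary members a median of 2006 bases, against 1995. All 90 numbered members had a length divisible by 3.

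In the limma fit over all tested models, 569 were higher with BCS than in the control (7.24%) at a Benjamini-Hochberg adjusted p under 0.05, among them 110 of the 110 tested members. Against copper, 906 were higher with BCS (11.5%), again with 110 of 110 members. The count of 569 was 327 without BCS replicate 1. Both contrasts were used to choose the members, so nothing is read from these counts. Between copper and control, 750 models changed (9.55%), among them 0 of 110 members. Without single libraries this count of 750 ran from 289 (copper replicate 3) to 1135 (BCS replicate 2), and it was 301, 355 and 463 without copper replicate 2, copper replicate 1 and control replicate 3. At an unadjusted p under 0.05 in limma 1 member passed, and voom on recovered reads called 0. Without control replicate 1 the adjusted test called 93-3_5.6A4903, with 97.4, 26.4 and 22.6 FPKM in the control and 59.1, 45.7 and 54.7 in copper. The 1 at an unadjusted p was Novel02144, with 7.94, 5.41 and 6.44 FPKM in the control and 4.602, 4.03 and 4.81 in copper, and 38.9, 47.8 and 38.7 in BCS. The rule kept models with a large copper ratio out, so the absence of calls does not show that copper left the members unaffected.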

How the data were processed

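Total RNA of 9 libraries (3 per group) was extracted with Trizol and made into libraries with a NEBNext Ultra kit, per the labels' protocols. The authors deposited 1 table of FPKM values, 1 column per library, without pooling. The submitters' processing notes list the tools DESeq 1.18.0, HTSeq 0.6.1, TopHat2 2.0.12 and Bowtie2 2.2.3, without roles, and mm8, a mouse build. The sources used here do not name the fungal genome and annotation that defined the models.

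Whole reads were recovered from the FPKM values. Each model was given the shortest length at which all its values above 0 were whole within 0.01 reads. The fit thus imposes wholeness on every model it gives a length, and 100% of 78337 values above 0 met it. Reads summed to 99.95% to 99.98% of the fitted totals. Fitted lengths of numbered models with at least 50 reads were divisible by 3 in 99.5% of 6562 cases. They were therefore taken as coding lengths without UTRs, which could not be checked without annotation. FPKM is not a count, so limma 3.58.1 (R 4.3.3, mean-variance trend) was fitted to log2(FPKM + 1) of all 9 libraries, which understates changes of weak models, with two-sided p-values adjusted over 7857 models at 1 FPKM or more in at least 3 libraries. The scripts were tested on simulated data.

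The members and lists were chosen with earlier results of these data known. Named were the 8 members highest in BCS, the 8 with the largest ratios, those nearest each threshold, the 3 most and 3 least variable in BCS, runs of at least 3 consecutive numbers and the 3 highest in the control; all others were chosen after their values were seen. Lists of copper-related genes could not be filled without annotation. Alternatives were other pseudocounts, filters, scalings and thresholds, voom, a replicate block and leaving out each library.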

Additional observations from a re-analysis of the deposited data

How the results depend on the processing

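Of 228 recomputed values for named members 0 reversed and 6 moved by more than the spread between replicates, all with a pseudocount of 0.1. Leaving out a copper library cannot change these ratios of BCS to control, so those values were fixed. The spread also includes any BCS or control library left out, so such a shift could hardly exceed it. Little is therefore read from this tally. With 1 library left out, the log2 ratio moved by over 1.5 times on the linear scale in 4: without BCS replicate 1 to 2.78 in 93-3_5.6A4973, 4.196 in 93-3_5.6A0564 and 6.09 in 93-3_5.6A6380, and without control replicate 1 to 8.62 in 93-3_5.6A6772. Of 121 recomputed counts 108 stayed within 1.5 times. Leaving out 1 library gave 327 to 654 models higher with BCS than in the control, and 289 to 1135 changed by copper. The number higher with BCS than with copper was 1434 with median-of-ratios scaling and 1373 with quantile normalization. The causes were not tested. Members called between copper and control were 1 under each of those scalings (Novel02144) and 0 to 1 with 1 library left out (93-3_5.6A4903 without control replicate 1). Members called between BCS and control numbered 85 to 110, with 85, 87 and 85 without BCS replicates 1, 2 and 3. The filter on low values was applied anew to the libraries kept. The 24 members under 1 FPKM in all 6 control and copper libraries could not pass it with a BCS library left out. They were untested there, so the lower counts are mostly not a loss of the difference. The rule itself admitted 183 models with a BCS ratio of at least 1 and 70 with a copper ratio within 0.3. It admitted 140 without BCS replicate 2 (104 of them members) and no more than that without any other library, 89 with a pseudocount of 0.1 (83 members), and 117, 124 and 121 with TPM, median-of-ratios and quantile scaling (103, 98 and 99 members). Same-numbered libraries correlated at -0.28 to 0.21 in their deviations, so the numbers were not taken as pairs; a replicate block gave 492 models higher with BCS than in the control, among them 110 members. Depth limits the members with fewest control reads.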
